A study of Mus musculus with 6 samples.

Results

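The genes described here are the subunits of calcium/calmodulin-dependent protein kinase II (CaMKII), its protein inhibitors, and the related kinases CaMKIV and CaMKK. They are 9 genes, Camk2a, Camk2b, Camk2d, Camk2g, Camk2n1, Camk2n2, Camk4, Camkk1 and Camkk2, of the 46078 listed in the deposited table. They were found by Ensembl identifier in GENCODE M21. The members were selected on the measured TG and WT values of Camk2n1 in these same mice together with the gene family, so the difference of Camk2n1 is given as a description and no test of it is reported.

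Striatal RNA was sequenced from 3 wild-type (WT) and 3 Shank3 transgenic (TG) male mice. All 6 were 12 weeks old and on a C57BL/6J background, with 1 library per mouse. The TG mice carry an EGFP-Shank3 transgene and overexpress Shank3, a scaffold protein of the excitatory postsynapse. The promoter of the transgene is not given in the sources used here. The comparison asks which RNAs differ in the striatum when Shank3 is overexpressed.

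CaMKII is among the most abundant proteins of the excitatory postsynapse. Calcium that enters through NMDA receptors binds calmodulin, calmodulin opens the kinase, and the kinase then phosphorylates itself and stays active after calcium has fallen. The alpha and beta subunits (Camk2a, Camk2b) predominate in forebrain neurons, whereas gamma and delta (Camk2g, Camk2d) are found in most tissues. Camk2n1 and Camk2n2 encode small proteins that bind the active kinase and block it. CaMKK1 and CaMKK2 are calmodulin-dependent kinases that phosphorylate CaMKI and CaMKIV, and CaMKIV (Camk4) acts on transcription in the nucleus.

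Values are normalized read counts, that is, reads per gene divided by the size factor of the library. Between 27689589 and 36647626 reads per library fell on genes. Shank3 itself had a mean of 28081 ± 1934 in TG mice and 13530.2 ± 531 in WT mice (SD, n = 3). TG replicate 1 stood apart in its markers of choroid plexus, the tissue that secretes cerebrospinal fluid. The 10 markers summed to 15214 there, against 362 to 1552 in the other TG mice and 317 to 660 in WT mice, and all 10 had a higher mean in TG mice. Kcnj13 was at 0 in WT replicate 3. Markers of spiny projection neurons, the principal neurons of striatum, were abundant in every library, and the lowest value of the 10 was 3158. Markers of cortical excitatory neurons, which lie outside the striatum, were present too, and none of the 8 was at 0. The summed cortical markers ranged from 31439 to 44130 in TG mice and from 36418 to 42152 in WT mice.

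The inhibitor gene Camk2n1 was lower in all 3 TG mice than in any WT mouse, by a mean difference of -12.2%. The values of the 8 other members overlapped between the genotypes, as did those of most genes, since 10.1% of all genes tested were apart. Camk2a, the alpha subunit, had the next largest difference in the same direction among the abundant members, with overlapping values. The estimates for the 4 subunits, CaMKIV and the upstream kinases all lay within 0.2 of equality on the log2 scale. So did that of Camk2n1, at -0.19, and Camk2d was of similar size in the other direction, at 0.18. The 95% intervals of Camk2d (-0.11 to 0.47) and Camk2a (-0.29 to 0.02) ran past that limit, so larger differences in them are not excluded. The intervals of Camk2b, Camk2g, Camk4, Camkk1 and Camkk2 stayed within it.

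Camk2n1 (ENSMUSG00000046447) is a gene of 2 exons on the plus strand of chromosome 4 (GRCm38, 138454314 to 138460123). TG replicates 1, 2 and 3 had 53442.5, 53362 and 58151 normalized read counts. WT replicates 1, 2 and 3 had 63775.5, 62528 and 61498. The highest TG mouse lay below the lowest WT mouse. The means were 54985 ± 2742 in TG mice and 62600.5 ± 1140 in WT mice (SD, n = 3), a difference of -12.2%. The log2 fold change was -0.19 (standard error 0.06). A separation of the groups with TG lower was seen in 5.05% of the 17605 genes tested, and 8.82% of them had a log2 fold change as low as this or lower. At least 47476 reads were counted on Camk2n1 in each library. TG replicates 1 and 2, at -0.23 and -0.23 against the WT mean on the log2 scale, were further from WT than TG replicate 3, at -0.11. When single mice were omitted the estimate lay between -0.23 and -0.17, and its sign could not turn because the groups were apart. It was -0.19 with the summed cortical markers as a covariate and -0.15 with the summed choroid plexus markers. Of the marker lists, only that of microglia, the immune cells of the brain, was apart when its 6 genes were summed. The sums were 8232 to 8896 in TG mice against 8958 to 9273 in WT mice. Taken singly, some of the 6 were apart and others overlapped. None of the 6 was at 0, all 6 had a lower mean in TG mice, and their part in the value of Camk2n1 was not tested.

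**Figure D1:**
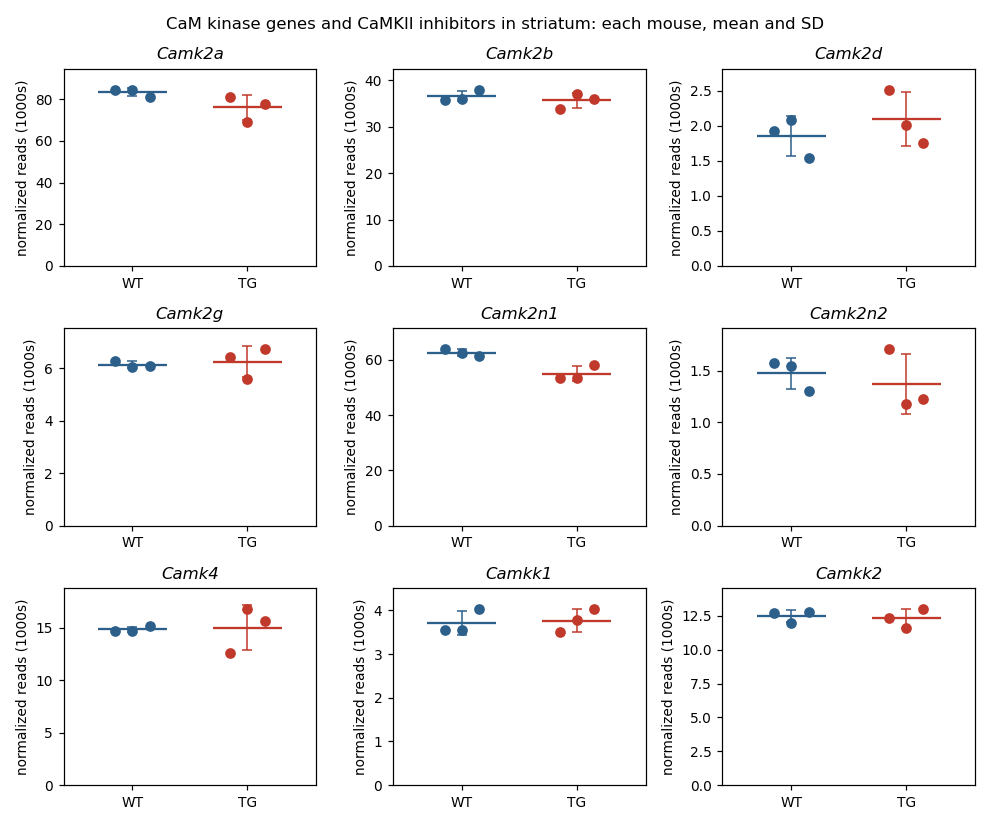
Normalized read counts, in units of 1000, of the 9 genes in each mouse, with 1 panel per gene, WT in blue and TG in red. Points are mice, horizontal lines the group means and bars the SD (n = 3). The groups are apart only in the panel of Camk2n1, where TG mice lie between 53362 and 58151 and WT mice between 61498 and 63775.5.

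Camk2n2, the other inhibitor gene (ENSMUSG00000051146; chromosome 16, 20619215 to 20621287, minus strand), was far less abundant, and its values overlapped between the genotypes. It had 1706, 1178 and 1227 normalized read counts in TG replicates 1, 2 and 3 and 1574, 1547 and 1301 in WT replicates 1, 2 and 3. TG replicate 1 was the highest of the 6 mice and TG replicate 2 the lowest. The log2 fold change was -0.12 (95% interval -0.40 to 0.16, adjusted P = 0.971 by limma). With TG replicate 1 omitted it was -0.29, and with TG replicate 2 omitted it was -0.02. It was -0.05 without TG replicate 3, -0.07 without WT replicate 1, -0.08 without WT replicate 2 and -0.21 without WT replicate 3. It was -0.30 with the choroid plexus markers as a covariate.

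The coding sequences of the inhibitor pair are shown because their likeness decides whether reads of the abundant gene could be counted on the rare one. They were read from the GENCODE M21 transcripts, 5′ to 3′ from start to stop codon, and capitals mark bases that differ in, or are missing from, the other sequence in a global alignment.
Camk2n1: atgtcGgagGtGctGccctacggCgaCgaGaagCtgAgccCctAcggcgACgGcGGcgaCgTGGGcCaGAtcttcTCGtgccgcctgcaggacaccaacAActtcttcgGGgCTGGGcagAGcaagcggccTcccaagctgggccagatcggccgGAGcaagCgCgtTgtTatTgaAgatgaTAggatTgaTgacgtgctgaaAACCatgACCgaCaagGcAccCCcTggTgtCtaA
Camk2n2: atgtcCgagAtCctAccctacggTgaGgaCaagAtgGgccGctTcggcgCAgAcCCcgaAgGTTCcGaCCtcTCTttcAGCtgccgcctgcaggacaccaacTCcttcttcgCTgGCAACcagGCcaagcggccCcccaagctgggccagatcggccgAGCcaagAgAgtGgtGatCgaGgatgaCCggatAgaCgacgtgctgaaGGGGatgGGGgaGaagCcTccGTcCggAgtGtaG
The 237 bases of Camk2n1 and 240 bases of Camk2n2 were identical in 70.4% of aligned columns. The unbroken lower-case stretches are longest in the middle of the sequences, and the longest run shared by the whole transcripts was 23 bases. Both genes encode short proteins, of 78 and 79 codons before the stop. No stretch as long as a read was shared between any of the 9 members, or between a member and a transcript of another annotated gene on either strand. No untrimmed read that matches one inhibitor transcript exactly can thus match the other. The exons of Camk4 overlap those of 2310026I22Rik, an antisense gene with at most 12.0 normalized read counts, over 72 bases, and no other member shares exon bases with another gene.

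Among the kinase subunits, Camk2a was the most abundant by reads and had a mean difference of -8.81% between TG and WT mice, with overlapping values. Camk2a (ENSMUSG00000024617; chromosome 18, 60925618 to 60988152, plus strand) had 81066, 69179 and 77812 normalized read counts in TG replicates 1, 2 and 3 and 84540.0, 84538 and 81021 in WT replicates 1, 2 and 3. TG replicate 1 was above the lowest WT mouse, and TG replicate 2 was the lowest of all. The estimate for TG against WT was -0.14 on the log2 scale (standard error 0.07, 95% interval -0.29 to 0.02, adjusted P = 0.971 by limma). It was -0.07 without TG replicate 2 and -0.13 with the summed cortical markers as a covariate. Those markers were also at their lowest, 31439, in TG replicate 2. In TG replicates 1 and 3 they were above each WT mouse, at 44130 and 43686. Camk2a was there at -0.04 and -0.10 against the WT mean on the log2 scale. The part of the cortical markers in the values of Camk2a was not tested. By the two-sided exact permutation test P was 0.2, and 3 mice against 3 cannot give less than 0.1.

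Camk2b, whose product also binds actin filaments, differed less between the genotypes (ENSMUSG00000057897; chromosome 11, 5969644 to 6066362, minus strand). It had 33827, 37091 and 36007 normalized read counts in TG replicates 1, 2 and 3 and 35809.9, 36009 and 37938.5 in WT replicates 1, 2 and 3. The ranges overlapped, and the lowest mouse was TG replicate 1. The log2 fold change was -0.04 (95% interval -0.16 to 0.08, adjusted P = 0.978 by limma), so a difference the size of that in Camk2n1 lay just outside the interval. It was -0.0011 without TG replicate 1, -0.01 without WT replicate 3 and -0.07 without TG replicate 2.

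The gamma subunit gene Camk2g (ENSMUSG00000021820; chromosome 14, 20734875 to 20794088, minus strand) had 6445, 5582 and 6719.8 normalized read counts in TG replicates 1, 2 and 3 and 6284, 6031 and 6070.1 in WT replicates 1, 2 and 3. The WT values lay inside the TG range. Its log2 fold change was 0.02 (95% interval -0.12 to 0.17, adjusted P = 0.988 by limma), and its sign turned without TG replicate 1 (-0.00077) and without TG replicate 3 (-0.03).

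The delta subunit gene Camk2d was the least abundant of the 4 per length and varied most from mouse to mouse (ENSMUSG00000053819; chromosome 3, 126596302 to 126846326, plus strand). It had 2516, 2015 and 1761 normalized read counts in TG replicates 1, 2 and 3 and 1933, 2084 and 1534 in WT replicates 1, 2 and 3. The highest mouse was 1.64 times the lowest. The log2 fold change was 0.18 (95% interval -0.11 to 0.47, adjusted P = 0.971 by limma). With single mice omitted it ran from 0.04 without TG replicate 1 and 0.05 without WT replicate 3 to 0.27 without WT replicate 2 and 0.29 without TG replicate 3. It was 0.01 with the choroid plexus markers as a covariate. The highest value of Camk2d was in the library with the highest choroid plexus markers, TG replicate 1. Against the WT mean on the log2 scale, those summed markers were at 5.01 there and between -0.58 and 1.71 in the other mice. The covariate thus mostly sets that library apart. The part of these markers in the values of Camk2d was not tested. A change in the cells sampled and a change in RNA per cell cannot be told apart in such bulk tissue.

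Of the CaM kinase kinases, Camkk2 was more abundant than Camkk1 in every mouse, and neither differed between the genotypes beyond the spread between mice. Camkk1 (ENSMUSG00000020785; chromosome 11, 73019008 to 73042073, plus strand) ranged from 3493 to 4031 normalized read counts in TG mice and from 3541 to 4028 in WT mice. The fold change on the log2 scale was 0.02 (95% interval -0.13 to 0.17, adjusted P = 0.989 by limma). Camkk2 (ENSMUSG00000029471; chromosome 5, 122731170 to 122779409, minus strand) ranged from 11603 to 13013 in TG mice and from 11938 to 12795 in WT mice. The fold change on the log2 scale was -0.02 (95% interval -0.14 to 0.10, adjusted P = 0.988 by limma). For both kinases the lowest and the highest mouse were TG mice.

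Camk4 (ENSMUSG00000038128; chromosome 18, 32934931 to 33191228, plus strand) had nearly equal group means and a wide spread among TG mice. It had 12612, 16771 and 15594 normalized read counts in TG replicates 1, 2 and 3 and 14686, 14698 and 15112 in WT replicates 1, 2 and 3. The means were 14993 ± 2144 in TG mice and 14832 ± 242 in WT mice (SD, n = 3). Its log2 fold change was 0.01 (95% interval -0.19 to 0.20, adjusted P = 0.997 by limma), and it was 0.12 without TG replicate 1 and -0.08 without TG replicate 2. TG replicate 1 also had the lowest summed normalized read counts of spiny projection neuron markers. Those 10 markers summed to between 135899 and 189750 in TG mice and between 163553 and 189789 in WT mice, none was at 0, and 9 of the 10 had a lower mean in TG mice. Against the WT mean on the log2 scale, Camk4 was at -0.23, 0.18 and 0.07 in TG replicates 1, 2 and 3. The same markers were at -0.36, 0.12 and -0.12, so in TG replicate 3 the signs were opposite. The part of these markers in the values of Camk4 was not tested.

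**Figure D2:**
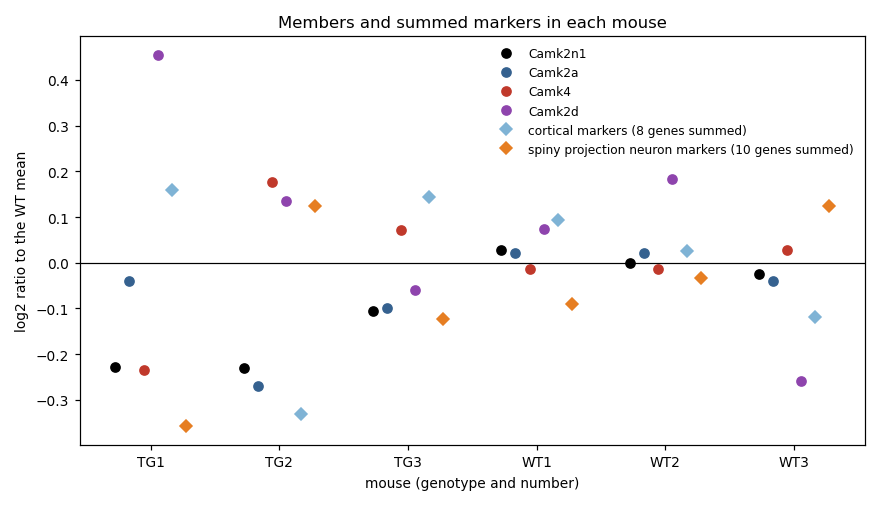
Log2 ratio to the WT mean, on the vertical axis, of Camk2n1, Camk2a, Camk4 and Camk2d (circles) and of the summed cortical and spiny projection neuron markers (diamonds) in each of the 6 mice. Camk2n1 is below 0 in each TG mouse, between -0.23 and -0.11, while the cortical markers are at 0.16 and 0.14 in TG replicates 1 and 3 and at -0.33 in TG replicate 2, and the spiny projection neuron markers are at -0.36, 0.12 and -0.12.

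Over the whole table, limma called 1 of the 17605 genes tested at an adjusted P value of 0.05 (0.00568%), and that gene was Shank3. None of the 8 members other than Camk2n1 passed, and 0 of the 8 had an unadjusted P value under 0.05, against 4.31% of all genes tested. DESeq2, edgeR's quasi-likelihood test and each other setting also called 0 of these 8. Within a genotype, Camk2n1, Camk2b, Camkk2 and Camk2a had SDs between mice of 0.05, 0.06, 0.07 and 0.09 on the log2 scale. The values of Camk2n1 chose the list, so its small spread is a description only. The median SD over all genes tested, which reach down to a mean of 10, was 0.11. Camk2g and Camkk1 were near that median, at 0.10 and 0.10. Camk2d, Camk2n2 and Camk4 were above it, with SDs of 0.25, 0.23 and 0.15.

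Per length, Camk2n1 and Camk2a were the highest of the members. Per kilobase of merged exons, the mean level over the 6 mice was 13230 ± 1029 for Camk2n1 and 10676 ± 769 for Camk2a (SD, n = 6). The ranges of these leading genes over mice, 12008 to 14351 and 9267 to 11325, did not overlap. Camk4 followed at 4576 ± 420 and Camk2b at 3958 ± 152, and these neighbours overlapped. Camkk2 (1136), Camk2n2 (1101), Camkk1 (1002) and Camk2g (967) formed a group in which each gene overlapped the next in order. Camk2d was last at 87.8 ± 14.7. The order rests on the length used, because merged exons include alternative and retained sequence. Merged exons span 22493 bases in Camk2d, whose longest coding transcript has 5524. Per kilobase of the longest coding transcript, Camk2a came first at 16035 ± 1155, in a range that overlapped that of Camk2n1. Camk2b, at 8977 ± 345, then lay above Camk4, at 5489 ± 503, with no overlap. Camk2g, at 1671 ± 106, then lay above Camk2n2 and Camkk1. Camk2d remained last, at 357 ± 59.9.

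**Figure D3:**
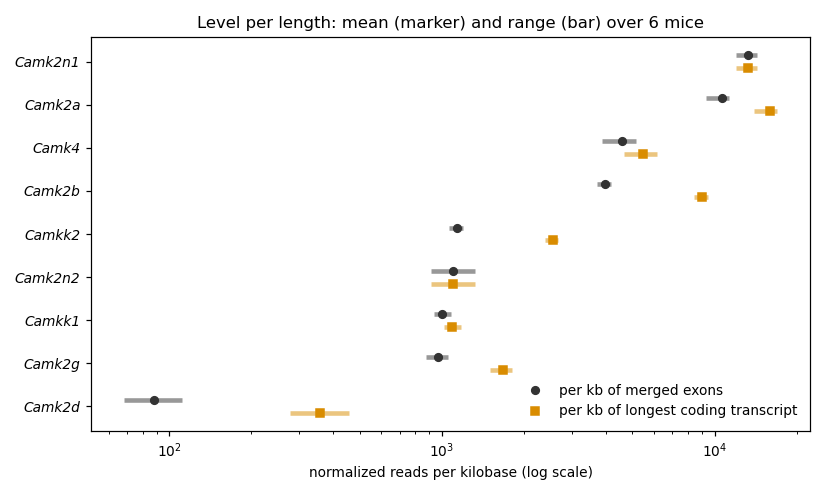
Normalized read counts per kilobase for the 9 genes, on a log axis, with markers at the mean and bars from the lowest to the highest of the 6 mice. Circles use the merged exons of the gene and squares its longest coding transcript, and Camk2n1 and Camk2a lead and Camk2d is last under either length.

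Camk2a had the largest share of the subunit RNA in every mouse, and the subunit proteins were not measured. Of the summed per-kilobase level of the 4 subunit genes, Camk2a held between 64.8% and 69.5%, Camk2b between 23.6% and 28.4%, Camk2g between 5.78% and 6.77% and Camk2d between 0.426% and 0.713%. With the longest coding transcript as the length, the Camk2a share was between 55.7% and 60.8% and the Camk2b share between 31.2% and 36.9%. The alpha and beta subunits differ in their binding to actin and in their sensitivity to calmodulin, and their ratio needs no scaling between libraries. On the log2 scale, the ratio of Camk2b to Camk2a per kilobase of merged exons was -1.55, -1.19 and -1.40 in TG replicates 1, 2 and 3 and -1.53, -1.52 and -1.38 in WT replicates 1, 2 and 3. TG replicate 2 had the highest ratio and TG replicate 1 the lowest. The difference of TG minus WT was 0.10 (standard error 0.11, two-sided exact permutation test, P = 0.7), and it was 0.0021 without TG replicate 2. The share of Camk2g was 6.42%, 6.10% and 6.77% in TG replicates 1, 2 and 3 and 6.02%, 5.78% and 5.92% in WT replicates 1, 2 and 3. These did not overlap, but with the longest coding transcript as the length TG replicate 2 (6.03%) lay below WT replicate 1 (6.07%).

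**Figure D4:**
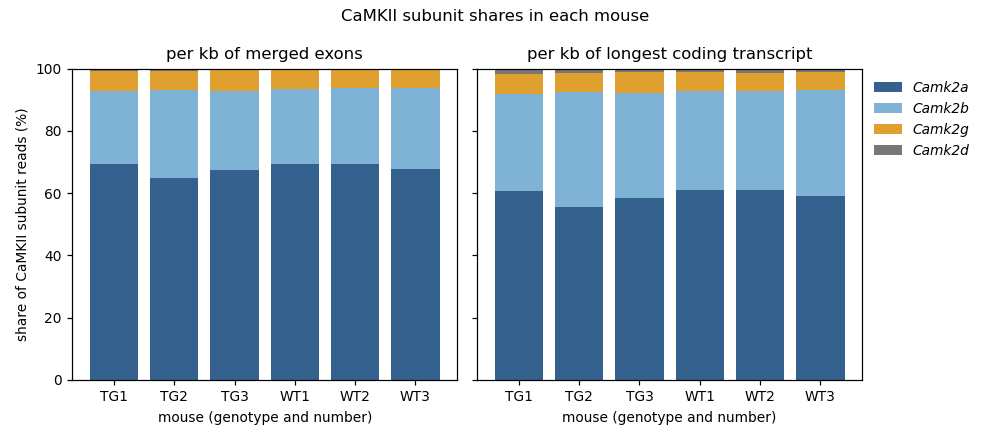
Share of each CaMKII subunit gene, in percent of the per-kilobase level of the 4 genes, in each mouse, with the merged exons (left) and the longest coding transcript (right) as the length. Camk2a takes between 64.8% and 69.5% on the left, with TG replicate 2 the lowest and WT replicate 2 the highest.

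Set against the RNA of the 4 kinase subunits, Camk2n1 differed less between the genotypes, by -0.09 on the log2 scale, than it did alone, by -0.19. The log2 ratio of Camk2n1 to the 4 subunit genes summed, per kilobase of merged exons, was -0.38, -0.25 and -0.24 in TG replicates 1, 2 and 3. In WT replicates 1, 2 and 3 it was -0.19, -0.21 and -0.21. The TG values lay below the WT values, with TG replicate 1 furthest off. The value of Camk2n1 chose the list and enters this ratio, so it is not a separate result and no test is given. The ratio of Camk2n1 to Camk2a alone overlapped between the genotypes. On the log2 scale TG replicates 1, 2 and 3 were at 0.15, 0.37 and 0.33, while WT mice ranged from 0.31 to 0.35, with TG replicate 2 the highest of the 6.

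The genes whose pattern over the 6 mice was nearest to that of Camk2n1 were Kif5a, Abtb1, Erf, R3hdm4 and Nfic. Likeness was the root-mean-square distance between log2 values centred on each gene's mean, over 6237 other genes whose mean was 1000 normalized read counts or more. Kif5a, a kinesin heavy chain of neurons that carries cargo along microtubules, was at a distance of 0.03, against a median of 0.12 for the genes compared. Kif5a had 124228, 119926 and 127153 normalized read counts in TG replicates 1, 2 and 3 and 140495, 138098 and 141296 in WT replicates 1, 2 and 3. Its log2 fold change of -0.18 is of the size of that of Camk2n1, as the choice by likeness fixes. Abtb1, Erf, R3hdm4 and Nfic had log2 fold changes between -0.19 and -0.13. Erf is a transcriptional repressor of the ETS family and Nfic a transcription factor of the nuclear factor I family. Of the other members, Camk2a was nearest to Camk2n1, at rank 171, and Camk2d, at rank 6214, and Camk2n2, at rank 6084, were among the furthest.

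The other genes of the calcium/calmodulin pathway were a list of 27 that spans calmodulin, its buffers, CaMKI, phosphatases and targets. Their log2 fold changes lay between -0.15 and 0.25. All 27 were tested, and 0 passed the test in either direction (limma, adjusted P of at least 0.971 each). An unadjusted P value under 0.05 was found for 2 of the 27, against 4.31% of all genes tested. Of the 27 genes, 16 were higher and 11 lower in TG mice, and the median log2 fold change was 0.02, against -0.0018 over all genes tested. TG and WT values were apart in 5 of the 27, 2 with TG higher and 3 with TG lower. Of all genes tested, 10.1% were apart, 5.06% with TG higher and 5.05% with TG lower.

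Among small calmodulin-binding proteins, Nrgn, which encodes neurogranin and holds calmodulin at the dendritic spine, was lower in each TG mouse than in any WT mouse. It had 37113, 33780.0 and 36704 normalized read counts in TG replicates 1, 2 and 3 and 41105.5, 39569.7 and 38756 in WT replicates 1, 2 and 3. TG differed from WT by -0.15 on the log2 scale (standard error 0.06, adjusted P = 0.971 by limma), and 0.0224 was its unadjusted P value. TG replicate 2 was lowest for Nrgn, as it was for Camk2a and for the summed cortical markers. In TG replicates 1 and 3 those markers summed to 44130 and 43686, above each WT mouse, while Nrgn lay below each WT mouse. The part of the cortical markers in the values of Nrgn was not tested. Gap43, Pcp4 and Pcp4l1 overlapped between the genotypes.

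Among the relatives of CaMKI, Camk1g, a membrane-bound form of the kinase, had the highest log2 fold change of the list. It had 1229, 1184 and 1097 normalized read counts in TG replicates 1, 2 and 3 and 835, 1047 and 1088 in WT replicates 1, 2 and 3. The groups were apart, but the lowest TG mouse exceeded the highest WT mouse by fewer than 10 normalized read counts. TG differed from WT by 0.25 on the log2 scale (standard error 0.09, adjusted P = 0.971 by limma), and 0.0231 was its unadjusted P value. The most abundant of this subgroup was Camkv, a kinase-like protein without kinase activity, with 20632 to 22469 in TG mice and 21893 to 23743 in WT mice. Camk1, Camk1d and Pnck also overlapped, with log2 fold changes of 0.04, 0.01 and 0.15.

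Of the phosphatases that act on CaM kinases, Ppm1e differed by 0.23 on the log2 scale (standard error 0.11) and Ppm1f by -0.02 (standard error 0.05), and neither passed the test. Calcineurin, the calmodulin-dependent phosphatase, was represented by Ppp3ca, Ppp3cb and Ppp3r1, with log2 fold changes between -0.05 and 0.06. Ppp3ca, the most abundant, had 46145 normalized read counts in TG replicate 1 and between 52868 and 60234 in the other mice. Like Camk4, it was at its lowest in the library with the lowest normalized sum of spiny projection neuron markers.

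The anchors and substrates of CaMKII at the synapse had log2 fold changes between -0.10 and 0.07. Grin2b, the NMDA receptor subunit that holds active CaMKII, was the most abundant of them, with 18132 to 18992 normalized read counts in TG mice and 17119 to 19986 in WT mice. Gria1, an AMPA receptor subunit that the kinase phosphorylates, was higher in each TG mouse than in any WT mouse (log2 fold change 0.07, standard error 0.05). It did not pass the test. In the subgroup listed here under CaMKIV and CaMKK, Crtc1, a coactivator of CREB, was the most abundant. It was lower in each TG mouse than in any WT mouse, at 7583 to 7752 against 7993 to 8455 normalized read counts. Its log2 fold change was -0.10 (standard error 0.04, not passing). Creb1, Prkaa1 and Prkaa2 had log2 fold changes between 0.09 and 0.11, with overlapping values.

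**Figure D5:**
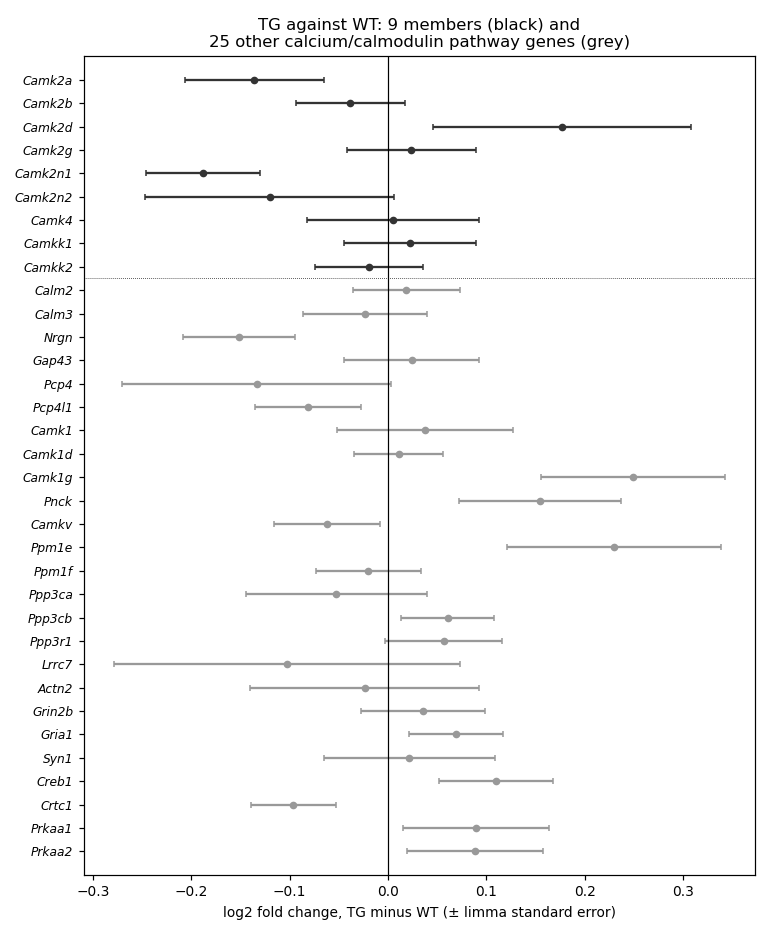
Log2 fold change of TG against WT, on the horizontal axis, for the 9 members (black) and 25 other calcium/calmodulin pathway genes (grey), with bars of 1 limma standard error. Camk2n1 is at -0.19, Camk2a at -0.14 and Nrgn at -0.15 on the left, and Camk1g is furthest to the right at 0.25.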

How the data were processed

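Striatal RNA of 3 WT and 3 Shank3 TG mice was sequenced by the authors on an Illumina HiSeq as paired-end reads, trimmed with Trimmomatic 0.35, aligned with TopHat2 2.1.0 to GRCm38 and counted per gene with HTSeq. The strand setting and annotation release are not given in the sources used here. The library kit, TruSeq RNA v2, does not mark strand. The deposited signal is the read count of each gene after division by a per-library size factor from DESeq2. Dividing by the smallest value above 0 gave whole reads (within 0.01) for 100% of values. Of 46078 identifiers, 45229 matched GENCODE M21.

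Differences were tested with limma 3.58.1 (R 4.3.3, mean-variance trend) on log2(value + 1) for the 17605 genes whose mean reached 10, and P values were adjusted by Benjamini-Hochberg and called at 0.05. Fold changes on this scale understate the change of low genes. These P values set the difference of TG and WT against the spread between these mice, with each gene's variance drawn toward that of genes at a similar level. A ratio was tested by the two-sided exact permutation test. Recovered reads were tested with edgeR 4.0.16 and DESeq2 1.42.0, the latter also with a prior and an empirical null, whose SD was fitted to the central part of the statistics. Fits were tested on simulated data. Other settings were pseudocounts, filters, scalings, marker covariates, the replicate number as a block and each mouse left out.

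The members, the pathway genes and the marker lists were chosen with earlier results of these data known. Named genes are the members, genes overlapping a member, Shank3 and the 5 genes most like Camk2n1. Pathway genes were to be named if their unadjusted P value was under 0.05 or they were highest in their subgroup. The list of 27 pathway genes was counted whole, and 2 of them are not reported here by name. Other pathway genes were named after their values were seen. Markers are given as summed lists, the abundant ones not by name, and Kcnj13 was named after its values were seen. Lists for thalamus, astrocytes, oligodendrocytes, microglia and endothelial cells had log2 differences (TG minus WT, summed) of 0.24, -0.06, -0.06, -0.10 and 0.01.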

Additional observations from a re-analysis of the deposited data

How the results depend on the processing

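None of the 8 members other than Camk2n1, and none of the 27 pathway genes, passed the test under any of the 18 alternatives run. The count over all genes was 1 and became 5 without a filter, 7 by DESeq2, 17 by DESeq2 with the prior and the empirical null, 3 with the cortical covariate and between 1 and 2 with a mouse left out. Camk2n1 lay between -0.23 and -0.15 (log2) over these settings, which is a description only. Its values were apart between the genotypes and chose the list, so leaving out a mouse could not turn its sign. The sign turned with a mouse left out for Camk2g (-0.0309 to 0.103), Camk4 (-0.0806 to 0.125), Camkk1 (-0.0280 to 0.0838) and Camkk2 (-0.0591 to 0.0237), whose differences are near 0; the cause was not tested. The median of the pathway genes moved from 0.02 to 0.0441 with the choroid plexus covariate and lay between -0.0035 (without WT replicate 3) and 0.0358 (without TG replicate 1) with a mouse left out. The ratio of Camk2b to Camk2a lay between 0.0021 and 0.18 with a mouse left out. Deviations of same-numbered mice correlated weakly (0.05, 0.02 and 0.09), and the main test did not pair them. The labels state no pairing, and such correlations cannot exclude one. With the replicate block, 1 gene was called, Shank3, 1024 genes against 758 had an unadjusted P value under 0.05, no call on a member or pathway gene changed, and the ratio of Camk2b to Camk2a differed by 0.10 (paired exact test, P = 1.0). No scaling moved the median of all genes by more than 0.0034 from 0. With 3 mice a genotype, differences of any size within the intervals given are compatible with these data.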
